A study of Mus musculus with 8 samples.

Results

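The genes described here encode the immunoproteasome and the machinery that loads its peptides onto MHC class I. The set has 10 members, taken by gene symbol and matched by Ensembl identifier, of 55536 genes in the count table. Psmb8, Psmb9 and Psmb10 encode the inducible catalytic subunits, and Psme1 and Psme2 encode the PA28 activator that caps the proteasome. Tap1 and Tap2 form the transporter that brings peptides into the endoplasmic reticulum. Tapbp (tapasin) and Tapbpl (TAPBPR) edit the peptides bound by class I, and Erap1 trims them.

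RNA was sequenced from 8 orthotopic tumors of HCA-1, a mouse hepatocellular carcinoma (HCC) line implanted in the liver of male C3H mice aged 6–8 weeks by the labels. On day 17 the mice received either saline (Control, 4 tumors, numbered 1, 3, 4 and 5 in the labels) or an intravenous injection of PFSUV-IMQ (IMQNP, 4 tumors, numbered 1, 2, 3 and 4), and tumors were taken after 3 h. PFSUV-IMQ is imiquimod, an agonist of Toll-like receptor 7, carried in phospholipid-free small unilamellar vesicles. The study's methods describe the control mice as given saline, whereas a legend calls them untreated. All tumors derive from 1 cell line, no group received empty vesicles or free imiquimod in these data, and no label states a litter, cage or sequencing batch.

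As background, most cells carry proteasomes with the constitutive catalytic subunits Psmb5, Psmb6 and Psmb7. Interferon signalling induces Psmb8, Psmb9 and Psmb10, which take the places of those subunits in newly assembled proteasomes and change the ends of the peptides produced. Peptides then pass through the transporter and are trimmed and loaded onto class I molecules for display to CD8+ T cells. Bulk RNA holds tumor cells, host liver cells and infiltrating leukocytes together, so fewer cells of a type and less RNA per cell cannot be told apart.

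The peptide transporter and tapasin rose most clearly after PFSUV-IMQ. Tap1, Tap2, Tapbp and Psmb10 passed an adjusted p under 0.05, with fold changes between 2.58 and 3.10, and no member was lower. This is 4 of 10 members, where 2.46% of the 15998 tested genes were higher and 0.219% were lower (edgeR quasi-likelihood test, Benjamini-Hochberg adjustment over all tested genes). All 4 also had a log2 fold change above 1, a rule that 2.26% of tested genes met. The fold change was above 0 in 10 of 10 members, against 46.0% of tested genes, and the median log2 fold change was 1.10 over the members and -0.03 over all tested genes. In 8 of 10 members every PFSUV-IMQ tumor exceeded every control tumor, against 6.00% of tested genes. DESeq2's Wald test placed 6 members higher, adding Psmb9 and Tapbpl, with 3.69% of its 19857 tested genes higher.

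**Figure D1:**
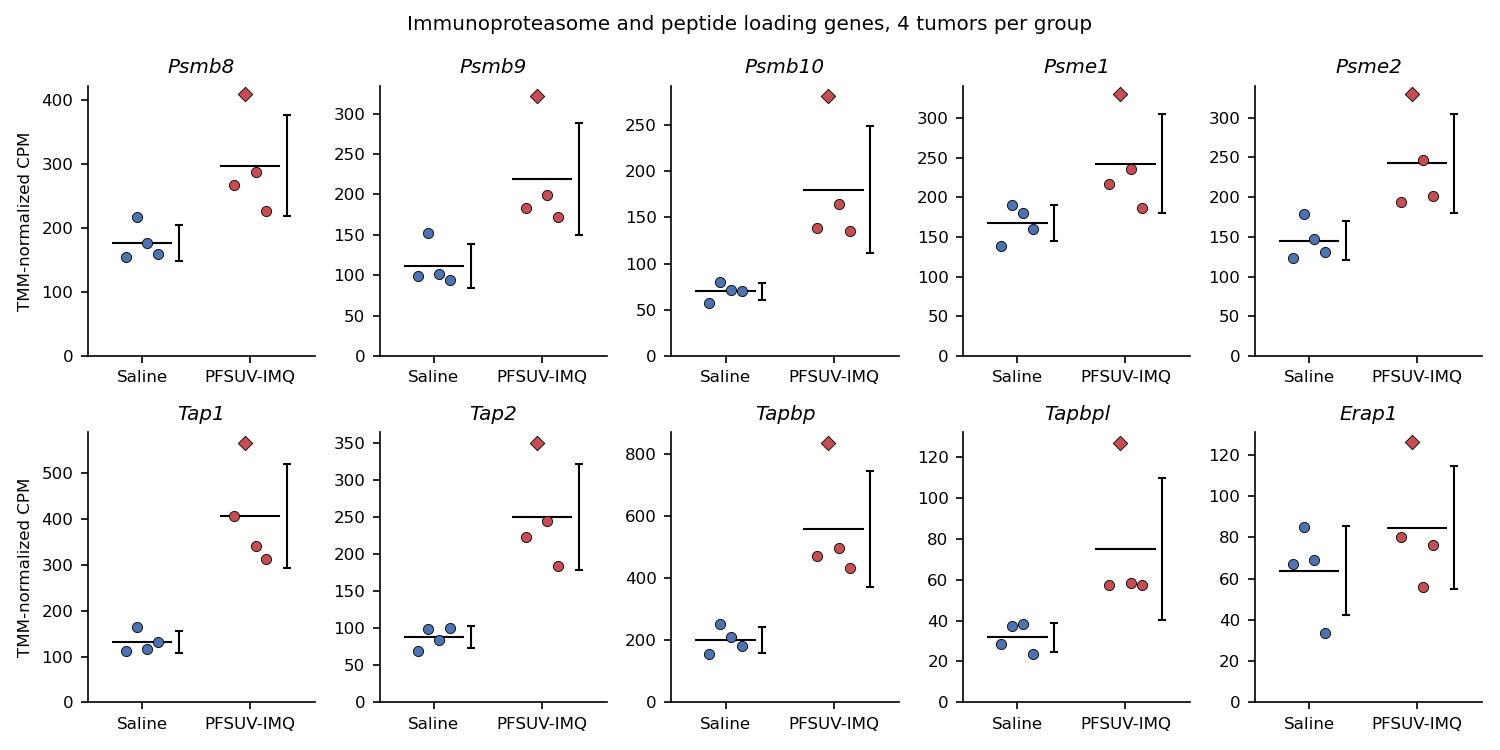
Normalized CPM (vertical axes, linear from 0) of the 10 genes in each of 4 saline and 4 PFSUV-IMQ tumors, with the group mean (line) and SD (bar). PFSUV-IMQ tumor 2, drawn as a diamond, is the highest tumor in 10 of 10 panels, and the groups overlap only for Psme1 and Erap1.

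A single tumor stood above the rest of its group in every member. PFSUV-IMQ tumor 2 had the highest value of all 10 members, from 1.54 times (Psme2) to 2.20 times (Tapbpl) the mean of the other 3 tumors of its group. It was also the highest of its group in 14 of 16 leukocyte markers and in 4 of 8 hepatocyte and HCC markers. Those 4 were the hepatocyte genes Alb, Apoa1, Ttr and Hnf4a, with Alb at 22740 CPM in this tumor and 22450 CPM in control tumor 4. It was the lowest of its group for Krt8, Krt18, Afp and Gpc3, with Krt8 at 443.8 CPM and Krt18 at 550.4 CPM. Its scaling factor (TMM) was the lowest of all tumors, at 0.843, and its share of mitochondrial reads the highest, at 6.65%. The share of all tested genes that were highest in this tumor is not given here. The part of these differences in the members' values was not tested. With that tumor left out, the median log2 fold change of the members was 0.77 (all tested genes -0.04), and Psmb10, Tap1, Tap2 and Tapbp still passed. Among controls, tumor 3 was highest in 8 members.

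Tap1, the transporter chain encoded beside Psmb9 on chromosome 17, was measured at 113.0, 164.1, 115.7 and 132.1 CPM in control tumors 1, 3, 4 and 5. The PFSUV-IMQ tumors 1, 2, 3 and 4 had 406.4, 565.5, 340.0 and 313.3 CPM. The lowest treated tumor was therefore above the highest control. The log2 fold change was 1.63 (SE 0.23, edgeR adjusted p = 0.00602), and it passed in 8 of 8 fits that each left out a tumor. Its partner chain Tap2 had 69.1, 99.2, 84.4 and 100.9 CPM in the controls and 223.4, 350.6, 245.0 and 183.7 CPM after PFSUV-IMQ. The groups again did not overlap, with a log2 fold change of 1.50 (SE 0.23, adjusted p = 0.00876) that passed in the same 8 of 8 fits.

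Tapbp, the tapasin that bridges the transporter to class I, had the highest counts per tumor among the editors. Its control values were 156.3, 251.6, 212.4 and 182.3 CPM, and its PFSUV-IMQ values were 472.9, 836.0, 496.6 and 431.9 CPM. Tumor 2 lay far above the other treated tumors, which were themselves all above the controls. The log2 fold change was 1.48 (SE 0.26, adjusted p = 0.0172), and the call was lost in 1 of 8 fits that left out a tumor, that without control tumor 1 (adjusted p = 0.0721). Tapbpl, the tapasin-related editor that works outside the loading complex, had 28.6, 37.2, 38.3 and 23.5 CPM in the controls and 57.6, 126.7, 58.2 and 57.2 CPM after PFSUV-IMQ. The other 3 treated tumors lay close together and tumor 2 stood apart. The log2 fold change was 1.23 (SE 0.30, adjusted p = 0.0732) and did not pass, and without tumor 2 it was 0.84 (adjusted p = 0.0744).

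Of the inducible catalytic subunits only Psmb10 passed. Psmb10, with trypsin-like activity, had 57.4, 80.1, 71.3 and 70.3 CPM in the controls and 138.5, 281.1, 164.2 and 135.8 CPM after PFSUV-IMQ. All treated tumors were above all controls, with a log2 fold change of 1.37 (SE 0.25, adjusted p = 0.0227). That call was kept in 3 of 8 fits that left out a tumor, and was lost without control tumor 1, 3, 4 or 5 or PFSUV-IMQ tumor 3, at adjusted p values of 0.052 to 0.0892. Psmb9 had 98.3, 152.2, 101.8 and 94.5 CPM in the controls and 182.7, 322.3, 198.7 and 172.0 CPM after PFSUV-IMQ. These groups did not overlap either, although control tumor 3 came near the lowest treated tumor, and the log2 fold change was 0.97 (SE 0.25, adjusted p = 0.0931). Psmb8, the subunit with chymotrypsin-like activity, had 154.9, 217.3, 177.2 and 159.7 CPM in the controls against 267.8, 409.5, 287.9 and 226.2 CPM. Control tumor 3 and PFSUV-IMQ tumor 4 were close, and the log2 fold change was 0.75 (SE 0.22, adjusted p = 0.137).

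Neither PA28 activator gene passed the test, nor did Erap1. Psme2 had 123.7, 178.3, 147.6 and 130.8 CPM in the controls and 193.3, 329.5, 247.0 and 201.2 CPM after PFSUV-IMQ, without overlap, for a log2 fold change of 0.74 (SE 0.22, adjusted p = 0.136). Psme1 had 139.0, 189.7, 180.2 and 159.6 CPM in the controls and 217.0, 330.6, 235.9 and 186.5 CPM after PFSUV-IMQ. Here PFSUV-IMQ tumor 4 fell below control tumor 3, and the log2 fold change was 0.54 (SE 0.21, adjusted p = 0.300). Erap1, the trimming peptidase, had 66.9, 85.1, 69.1 and 33.7 CPM in the controls and 80.4, 126.2, 56.0 and 76.4 CPM after PFSUV-IMQ. Its groups overlapped widely, with a log2 fold change of 0.41 (SE 0.31, adjusted p = 0.683).

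**Figure D2:**
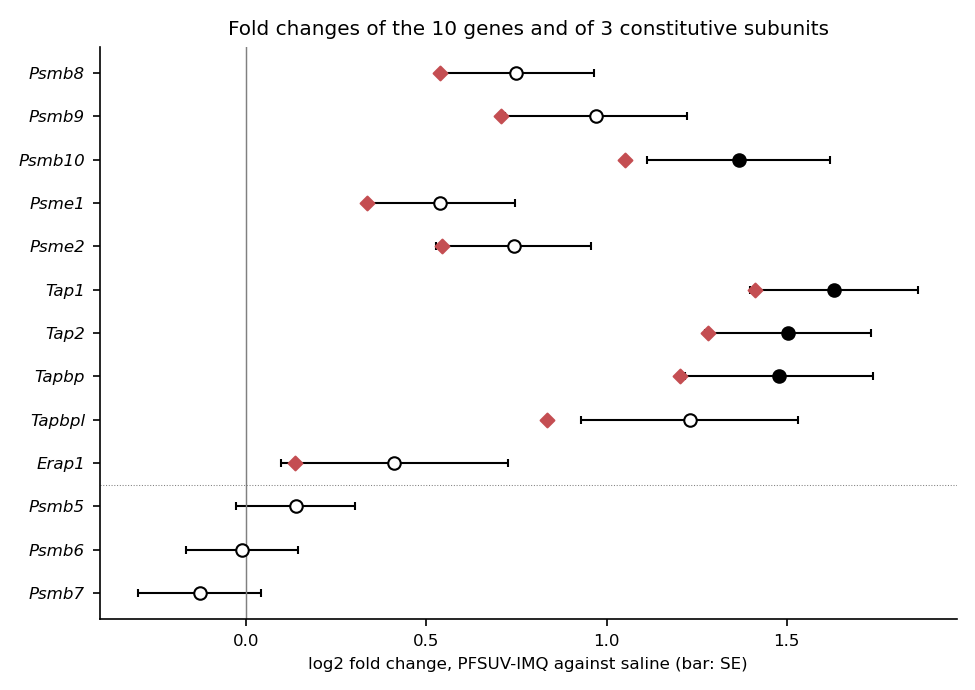
Log2 fold change (horizontal axis, PFSUV-IMQ against saline, bars ± SE) of the 10 genes and of Psmb5, Psmb6 and Psmb7. Filled circles passed an adjusted p under 0.05, and red diamonds give each member's value without PFSUV-IMQ tumor 2, which was smaller in 10 of 10 members.

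Compared per length, Psme2, Psmb8 and Psme1 had the highest levels in the controls. In CPM per kb of the longest transcript, Psme2 led the controls at 151 ± 25.3 (SD, n = 4), followed by Psmb8 at 93.0 ± 14.9, Psme1 at 84.2 ± 11.4 and Tapbp at 69.2 ± 14.2. The ranges of mean ± SD of Psmb8, Psme1 and Tapbp overlapped, and per base of all exons Tapbp, at 55.3 CPM per kb, was above Psmb8, at 52.4. Psmb10 at 53.2 ± 7.13 and Psmb9 at 38.8 ± 9.42 followed. The transporter chains were lower, at 33.6 ± 6.01 for Tap1 and 25.7 ± 4.31 for Tap2, and Tapbpl at 13.6 ± 3.01 and Erap1 at 11.3 ± 3.83 were lowest and within each other's spread. After PFSUV-IMQ the levels of Tap1 and Tap2 were 104 ± 28.9 and 72.8 ± 20.7 CPM per kb. Psme2 was again highest, at 252 ± 65.0, and Tapbp, at 193 ± 64.3, stood above Psmb8 at 156 ± 41.3 by less than their spread. Per base of all exons Tapbp, at 154 CPM per kb, was above Psme2, at 138.

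The study's design lets the inducible subunits be set against the constitutive subunits they replace, within each tumor and without any library scaling. Reads per base of exon of Psmb10 over Psmb7 were 2.16, 3.42, 2.36 and 2.74 in the controls and 4.54, 12.4, 6.84 and 6.89 after PFSUV-IMQ. The treated tumors were all higher, by 2.73-fold, with tumor 2 far above the rest. Psmb9 over Psmb6 rose from 0.544 ± 0.176 to 1.05 ± 0.280 (SD, n = 4 each), by 1.95-fold, and Psmb8 over Psmb5 from 1.29 ± 0.189 to 1.96 ± 0.201, by 1.52-fold. The levels of these ratios depend on the length used, whereas their fold differences do not. Per base of the longest transcript, Psmb9 over Psmb6 was 0.356 ± 0.115 in the controls and 0.685 ± 0.183 after PFSUV-IMQ. By that length Psmb8 over Psmb5 was 2.29 and 3.47, and Psmb10 over Psmb7 was 2.89 and 8.31. No ratio overlapped between groups. Each had an exact two-sided permutation p = 0.0286, also after adjustment over the 3 ratios, which is the smallest that 4 against 4 tumors allow. Without PFSUV-IMQ tumor 2 the log2 differences were 1.19, 0.79 and 0.57 in the same order, beside 1.45, 0.96 and 0.61 with it. Psmb5 shares 57.1% of its 50-base sequence words with other loci, so its own level depends on how the authors counted such reads.

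**Figure D3:**
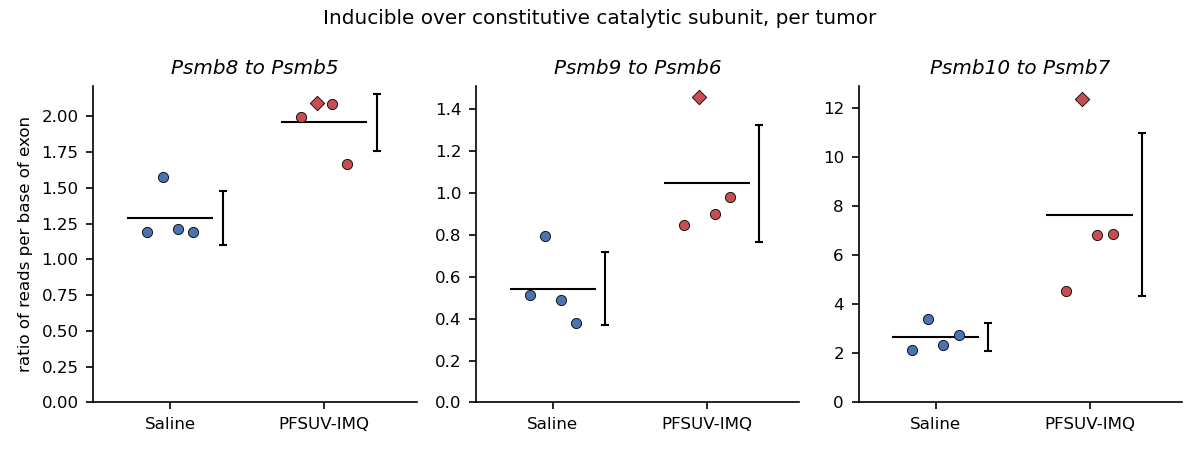
Ratio of reads per base of exon (vertical axes, linear from 0) of each inducible subunit over its constitutive counterpart, per tumor, with the group mean (line) and SD (bar) of 4 tumors per group. The groups do not overlap in any panel, and PFSUV-IMQ tumor 2 (diamond) reaches 12.4 for Psmb10 over Psmb7.

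The rest of the proteasome did not pass the test. None of 32 tested constitutive catalytic, other 20S core and 19S regulator genes passed in either direction, and none had an unadjusted p under 0.05. No gene of these 3 lists was called by DESeq2. Their log2 fold changes ran from -0.22 (Psmd6, a regulator lid subunit, adjusted p = 0.517) to 0.33 (Psma5, a core ring subunit, adjusted p = 0.471), with a median of 0.01. Psmb5 was at 0.14 (adjusted p = 0.817), Psmb6 at -0.01 (adjusted p = 0.987) and Psmb7 at -0.13 (adjusted p = 0.839). PFSUV-IMQ tumor 2 was the highest of its group in 10 of 11 other core genes as well, but in only 1 of 18 19S regulator genes. The summed level of the 19S regulator genes was 2078 CPM in that tumor and 2196 to 2676 CPM in the controls. Of the other activators and assembly factors, 8 of 10 were tested and none passed, with Pomp, the maturation factor, at 0.24 (adjusted p = 0.745).

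Other genes of the class I pathway divided in the same fit. None of 8 endoplasmic reticulum folding factors passed, the largest difference being that of Hspa5, the chaperone BiP, at 0.44 (adjusted p = 0.555). None of 6 matched cytosolic and other peptidases passed, with Lap3 at 0.33 (adjusted p = 0.727). Of the class I molecules B2m, H2-K1 and H2-D1 and their transactivator Nlrc5, only Nlrc5 passed, at 1.72 (SE 0.22, adjusted p = 0.00367), while H2-K1 was at 0.88 (adjusted p = 0.108), H2-D1 at 0.64 (adjusted p = 0.184) and B2m at 0.51 (adjusted p = 0.385). The groups did not overlap for Nlrc5, H2-K1 and H2-D1, and DESeq2 called H2-K1 higher as well (adjusted p = 0.00799). Of 3 interferon transcription factors, Stat2 at 2.34 and Irf9 at 1.26 rose, and Irf1 was at 0.87 (adjusted p = 0.0939). DESeq2 called all 3 higher, with Irf1 at an adjusted p = 0.0239, and none of the 3 overlapped between groups.

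**Figure D4:**
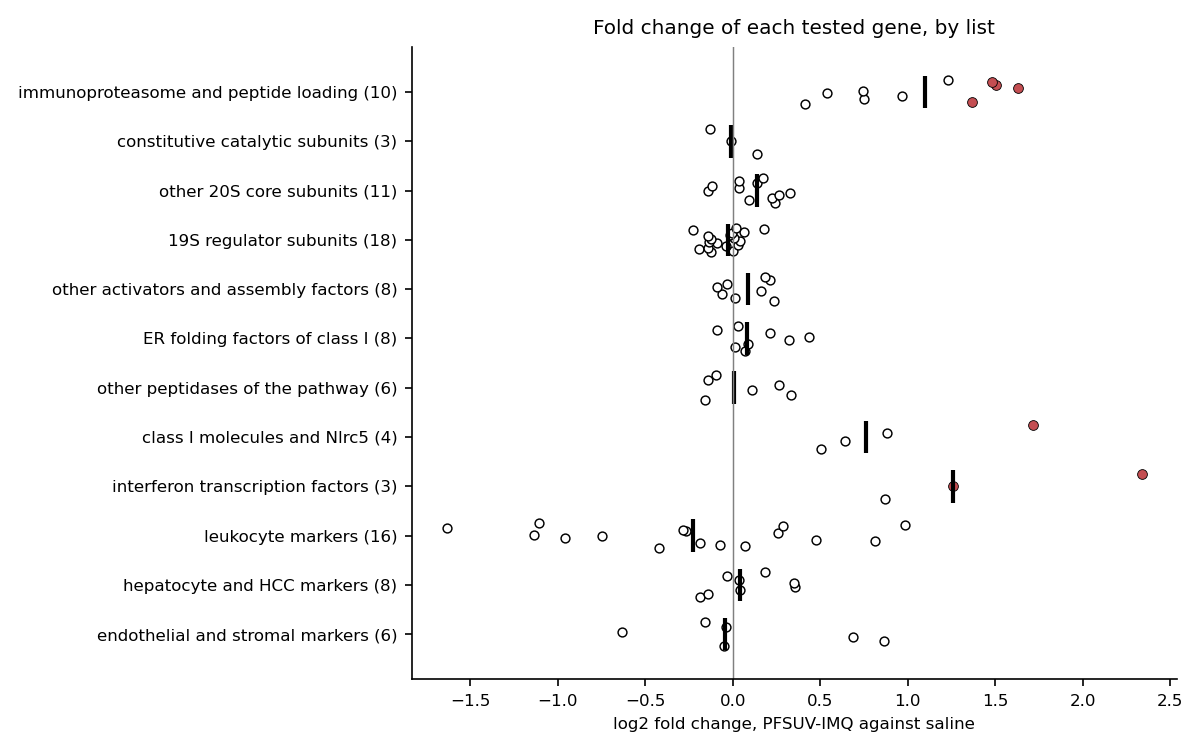
Log2 fold change (horizontal axis, PFSUV-IMQ against saline) of every tested gene, by list, with the number tested in parentheses and the list median as a line. Red points passed an adjusted p under 0.05 and were higher, which holds for 4 members, Nlrc5, Stat2 and Irf9.

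Markers of other cells were measured beside these results. None of 16 leukocyte markers passed with edgeR (4 had an unadjusted p under 0.05, and DESeq2 called 2 lower), their median log2 fold change was -0.23, and their summed level ran from 1145 to 1887 CPM in the controls and from 790 to 1790 CPM after PFSUV-IMQ. The lowest leukocyte marker was Ncr1, a natural killer cell receptor, at -1.64 (adjusted p = 0.325), with as few as 2 counts in a tumor. The markers that DESeq2 called lower were Flt3 at -1.13 (adjusted p = 0.0334) and Clec4f at -0.95 (adjusted p = 0.0337). Lyz2 alone had 789.2 to 1351 CPM in the controls and 559.9 to 1221 CPM after PFSUV-IMQ, so it made up much of the summed leukocyte level. None of 8 hepatocyte and HCC markers passed (6165 to 30730 CPM in the controls, 7768 to 31090 CPM after PFSUV-IMQ), and Gpc3 had the largest difference at 0.36 (adjusted p = 0.806). None of 6 endothelial and stromal markers passed, with Col1a1, a collagen chain, at 0.87 (adjusted p = 0.393) and sums of 1659 to 2495 and 2184 to 6193 CPM. No listed marker was at 0 counts in any tumor, and the part of cell makeup in the members' differences was not tested.

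A group of 4 members lie together in the MHC on chromosome 17 (GRCm38, GENCODE M21). Psmb9 spans chr17:34181987-34187764 on the minus strand and Tap1 spans chr17:34187553-34197225 on the plus strand, so that the genes point away from each other and share 212 exonic bases. Psmb8 (chr17:34197721-34201454) follows 495 bases after Tap1, and Tap2 (chr17:34203527-34216321) 2072 bases after Psmb8. Tapbp (chr17:33915899-33929292) lies 252694 bases from Psmb9. The remaining members are Psmb10 on chromosome 8, Psme1 and Psme2 on chromosome 14, Tapbpl on chromosome 6 and Erap1 on chromosome 13. Tumors were from C3H mice, whereas this assembly is that of another strain, and the effect on read assignment was not tested.

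By their RefSeq starts, Psmb9 and Tap1 are read from opposite strands of the same short stretch, shown because the genes differed unequally. It is chr17:34187331-34187555 (plus strand, RefSeq promoters on GRCm38.p6), between the start sites of Tap1 and Psmb9:
Psmb9-Tap1: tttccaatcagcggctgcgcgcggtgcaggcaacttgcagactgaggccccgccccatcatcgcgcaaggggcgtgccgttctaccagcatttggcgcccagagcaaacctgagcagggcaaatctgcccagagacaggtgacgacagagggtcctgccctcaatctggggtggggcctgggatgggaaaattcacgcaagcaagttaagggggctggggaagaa
The count ratio of Tap1 to Psmb9, a comparison chosen after the values were seen, was 1.15, 1.08, 1.14 and 1.40 in the controls and 2.22, 1.75, 1.71 and 1.82 after PFSUV-IMQ. Every treated tumor was higher, a 1.58-fold difference (exact two-sided permutation p = 0.0286, which does not correct for that choice). By GENCODE, Psmb9 instead starts at 34187764, beyond the printed stretch and inside Tap1. Since strand use in the authors' counting is not stated, reads in the bases shared by the GENCODE genes could count for either gene or for neither.

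Promoters of 8 of 10 members were matched, each with 250 bases before and 50 after a RefSeq start, and were searched on both strands for GAAANNGAA, the core of the interferon-stimulated response element, and TTCNNNGAA, the gamma-activated site. The motifs were present in 8.56% and 8.30% of 32851 mouse promoters. The stretches with matches are shown with the matches in capitals (for Psme1 and Erap1 they read as the core on the opposite strand):
Psmb8: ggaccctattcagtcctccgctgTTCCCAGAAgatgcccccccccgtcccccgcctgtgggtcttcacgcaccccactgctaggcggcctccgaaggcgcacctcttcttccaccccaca
Psme1: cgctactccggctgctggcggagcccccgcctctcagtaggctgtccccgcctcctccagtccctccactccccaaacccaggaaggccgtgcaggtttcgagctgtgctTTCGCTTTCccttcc
Erap1: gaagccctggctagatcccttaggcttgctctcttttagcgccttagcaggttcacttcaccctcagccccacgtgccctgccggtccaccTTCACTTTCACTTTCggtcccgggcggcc
The Psmb8 stretch (chr17:34198075-34198194) holds 1 gamma-activated site, that of Psme1 (chr14:55578394-55578518) 1 response element core, and that of Erap1 (chr13:74639753-74639872) 2 overlapping cores. The windows of Psmb8, Psme1 and Erap1 begin at 34197945, 55578244 and 74639603. GENCODE starts these genes earlier, at 34197721, 55578123 and 74639568, so the windows lie inside the GENCODE genes. Sequence before those GENCODE starts was not searched. Neither motif was found in the windows of Psmb9, Tap1, Psmb10, Psme2 or Tapbp, which says only that these letters are not in those windows. The 3 members with a match did not pass the test, and a match is a description of sequence, not of binding.

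Genes next to the members were read in the same fit. Of 38 tested genes within 50 kb, 6 were higher and none lower, where 2.46% of all tested genes were higher and 0.219% lower. The 6 included Daxx, a transcriptional corepressor, at 2.96 and 309 bases from the GENCODE start of Tapbp, and BC051226 at 1.53 on the same side. The RefSeq promoter window of Tapbp lies further from Daxx, at chr17:33919228-33919527. On the other side of Tapbp was H2-K2, annotated as a pseudogene, at 2.43. The others were Ctrl, a chymotrypsin-like protease gene, at 2.41 near Psmb10, and Rnf31 at 1.60 and Irf9 at 1.26 near Psme1 and Psme2. Ctrl and BC051226 were at low levels. Ctrl had a mean of 0.558 CPM in the controls and 2.99 CPM after PFSUV-IMQ, and BC051226 had 1.545 and 4.487 CPM. The BC051226 call was kept only without PFSUV-IMQ tumor 1 among fits that left out a tumor, with adjusted p values up to 0.0907 in the others. None of 6 tested neighbours of the Psmb9, Tap1, Psmb8 and Tap2 block passed, and the same held for 5 neighbours of Tapbpl and 2 of Erap1. Rnf31, a subunit of the linear ubiquitin ligase, starts 595 bases from Psme2 on the opposite strand. Its count ratio to Psme2, also chosen after the values were seen, went from 0.221 ± 0.0617 to 0.397 ± 0.0621 (SD, n = 4 each). This was a 1.83-fold difference without overlap (exact two-sided permutation p = 0.0286, which does not correct for that choice).

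**Figure D5:**
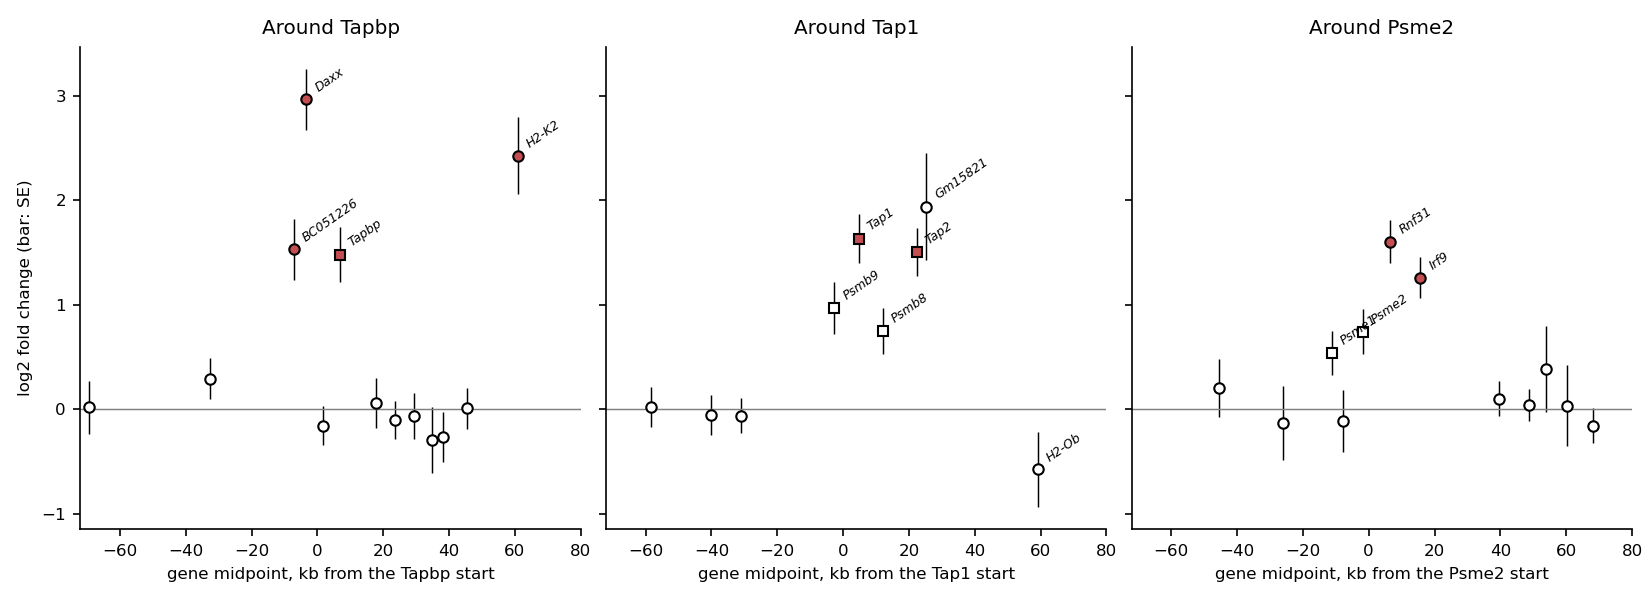
Log2 fold change (vertical axis, bars ± SE) of tested genes by the distance of their midpoint from the start of Tapbp, Tap1 or Psme2 (horizontal axes, kb). Squares are members, red symbols passed an adjusted p under 0.05, and names are given to members, to genes that passed and to genes beyond 0.5 in size. Daxx at 2.96 lies beside Tapbp, and Rnf31 at 1.60 beside Psme2.

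Several members share sequence or exons with other genes, which limits their counts. Psme2 shares 59.3% of its 50-base words with Psme2b, an intronless copy on chromosome 11 that was itself higher, at 2.37 (SE 0.41, adjusted p = 0.0165), a call lost without control tumor 1 (adjusted p = 0.0651) or 4 (adjusted p = 0.0558). Psme2b had 4.89, 11.6, 7.09 and 6.79 CPM in the controls and 16.5, 58.5, 51.2 and 31.2 CPM after PFSUV-IMQ, without overlap. It took 3.80, 6.11, 4.58 and 4.94% of the reads of both genes in the controls and 7.86, 15.1, 17.2 and 13.4% after PFSUV-IMQ. The count ratio, chosen after the values were seen, differed by 2.95-fold (exact two-sided permutation p = 0.0286, adjusted over these 3 count ratios p = 0.0286). Neither p-value corrects for that choice. Summed as 1 gene, Psme2 and Psme2b had a log2 fold change of 0.89 (SE 0.23, adjusted p = 0.0945). Tapbp overlaps Gm19412 over 24.9% of its exonic bases, Psmb8 overlaps Gm20496 over 14.7% and Tap2 overlaps Gm15821 over 14.1%. Gm20496 had 0 counts in every tumor and Gm19412 at most 2, whereas Gm15821 was at 1.94 (adjusted p = 0.0956). Erap1 overlaps Cast over 11.5%, and Cast was at 0.00 (adjusted p = 0.997). Zbtb22, which shares 149 exonic bases with Tapbp on the same strand, was at -0.16 (adjusted p = 0.817).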

How the data were processed

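Bulk RNA was sequenced from 8 tumors, 4 per group, with 16883911 to 27687756 counted reads per control tumor and 17008151 to 18527613 per PFSUV-IMQ tumor. The authors deposited raw counts per gene, which were the input of every test, and signal values that they made with DESeq2 by dividing counts by size factors, which were used for symbols and as an alternative scaling. The paper's methods name TopHat and HTSeq, whereas the submitters' processing notes list Trimmomatic 0.38, HISAT2 2.1.0 and featureCounts 2.0.0. The genome build and strand setting are not given in the sources used here. All 55536 identifiers are in GENCODE M21, which supplied positions.

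Counts were scaled with TMM, filtered with filterByExpr and tested with the quasi-likelihood test of edgeR 4.0.16 in R 4.3.3, with Benjamini-Hochberg adjustment over 15998 genes, and normalized CPM used the same factors. Nothing states that tumors shared a litter or calendar day, and p-values set the group difference against the spread between these tumors. Counts of 433 to 11967 reads stand behind each member's value, so counting error was small beside the spread between tumors. The procedure was also run on counts simulated independently for each gene. Those counts had no shared differences between tumors, so the run does not show how the tests perform on these data.

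The members, lists and tests were chosen with earlier results of these data known. Named genes were the members, Psmb5 to Psmb7, listed genes that passed (the largest difference where none did), neighbours within 50 kb that passed, and genes sharing exons or, by a limit chosen after the values were seen, at least 1.5% of 50-base words with a member. B2m, H2-K1, H2-D1, Irf1, Flt3, Clec4f, Lyz2 and the hepatocyte and HCC markers beside Gpc3 were named after their values were seen. Nrdc was not matched, and 1 listed gene is not reported here. The alternatives were other scalings, filters and tests, DESeq2 1.42.0, a replicate block and each tumor left out.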

Additional observations from a re-analysis of the deposited data

Results flagged for a closer look

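In 84 groups of 4 tumors, over 42 genes and ratios, 13 values stood apart from the other 3 of their group. The rule was Dixon's criterion (the gap to the nearest tumor over the range of the group), which marks about 1 in 20 groups of independent values. These groups share the same tumors, and some genes were chosen after their values were seen. The count of 13 can therefore not be set against that rate. PFSUV-IMQ tumor 2 held 6 of them, all as the highest value, with Tapbp at 836 CPM, Tapbpl at 126.7 CPM, Psmb5 at 52.05 CPM, Lap3 at 234.2 CPM, Gm15821 at 10.9 CPM and Daxx at 405.8 CPM. PFSUV-IMQ tumor 4 was lowest for Psmb6 at 89.7 CPM and highest for Psmd6 at 69.3 CPM, and PFSUV-IMQ tumor 1 was highest for Col1a1 at 3913 CPM. Control tumor 3 was highest for Psmb9 at 152.2 CPM and for the ratio of Psmb8 to Psmb5 at 1.574 reads per base of exon. Rnf31 was highest in control tumor 5 at 39.64 CPM, and Hlcs, which shares sequence words with a member, was apart in control tumor 4 at 13.83 CPM. The cause of these values was not tested.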

How the results depend on the processing

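No member was lower under any alternative, and 4 members were higher with other scalings, the stricter count filter, the fold change limit and the replicate block. With no filter on low counts 5 passed, with DESeq2 and edgeR's exact test 6, and with glmTreat, which tests against a log2 fold change of 1, 0. Across fits that each left out a tumor, 2 to 4 passed, and only Tap1 and Tap2 in all 8. Over all genes, 732 of 19857 were higher and 180 lower with DESeq2. Of the 15998 genes of the main fit, 627 were higher and 110 lower with the exact test, and 119 and 1 with glmTreat. No filter, with 34703 genes, gave 64 lower, and its number higher is not given here, so its 5 members have no share beside them. Fits without a tumor gave 198 to 398 higher and 8 to 41 lower. Upper-quartile scaling moved the median of all tested genes from -0.03 to -0.10.

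Tumors of the same number did not deviate together (correlations 0.294, -0.268 and -0.316), so the numbers were not taken as pairs. Control tumor 5 and PFSUV-IMQ tumor 2 have no partner of the same number, so the replicate block in effect compares only the tumors numbered 1, 3 and 4. With this block 519 genes were higher and 302 lower, and Erap1 was at -0.06. The block gave log2 differences of 0.54 for Psmb8 to Psmb5, 0.63 for Psmb9 to Psmb6 and 1.21 for Psmb10 to Psmb7, each with exact p = 0.25, the smallest that 3 pairs allow. Leaving out a tumor gave 0.57 to 0.71, 0.79 to 1.16 and 1.19 to 1.67, where 3 against 4 tumors cannot go below an exact permutation p of 0.0571. The same limits applied to the count ratios chosen after seeing the data. With 4 tumors per group, differences of the size of Psmb8 and Psme2 did not pass, which does not show that they are absent.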
